A study of Mus musculus with 6 samples.

Results

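In mouse male germ cells, 74 recurring patterns of CpG spacing that were methylated in control pups were followed in pups without Tex15. The levels went with the spacing: 2 chains of spacings were at 11.4 to 23.4% in the Tex15KO pups against 80.5 to 86.6% in the controls. A further 2 related sets were low at some copies and high at others. Arrays of closely packed CG dinucleotides, pooled over their copies, had about the same level in every genotype. A pattern is a run of 6 successive CpGs described by the 5 distances between them in bp, each under 1000 bp and read in either direction, and it was called recurring when found at 10 or more places in the genome. A pattern became a member when its CpGs, pooled over the 4 control pups, were methylated at 50% or more. Patterns holding the runs 3-7-13-4, 4-5-7-7 or 2-6-2-4-13, the mitochondrial genome and 101 deeply read 1 kb tiles were left out. Of 643 recurring patterns, 564 were under 50% in the controls and 5 held a left-out run, which left the 74 members with 3193 places and 11940 CpGs, of 8610279 CpGs in all.

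The groups were Tex15KO (pups 3 and 16, homozygous for the disrupted Tex15), Tex15HT (pups 7 and 18, heterozygous) and Tex15WT (pups 8 and 9, wild type), so n = 2 pups per genotype, each pup a separate animal. All 6 were male, at postnatal day 2.5, of mixed strain background, born to heterozygous parents and carrying the Oct4-GFP reporter by which their germ cells were sorted. Whole-genome bisulfite sequencing reads a methylated cytosine as C and an unmethylated one as T, and a methylation level is the share of calls read as C. No gene expression was measured, so the identity of the sorted cells was not checked against marker genes.

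TEX15 is a nuclear germ cell protein known to work with the PIWI pathway, in which small RNAs direct DNA methylation to young retrotransposons in fetal male germ cells. Retrotransposons such as L1 and IAP elements are present in many near-identical copies, and copies that keep their sequence also keep the distances between their CpGs. Mouse L1 promoters are known to hold tandem repeats called monomers. The files carry no repeat annotation, so no spacing is given an element name here.

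The libraries yielded between 27495658 and 52935635 calls per pup. Tex15KO 3 stood apart, with 0 calls at 74.4% of cytosines (1.71 to 10.2% in the other 5 pups) and a median of 8 calls at covered cytosines (2 to 4 in the others). At the members' own CpGs, 62.4% had 0 calls in Tex15KO 3, against 2.34% in Tex15KO 16 and 5.37 to 9.16% in the controls. Values are therefore given for each knockout pup separately, and calls are given with and without Tex15KO 3. The level of CpGs in no recurring pattern was 76.3% in Tex15KO 3 and 75.7% in Tex15KO 16, within the 73.9 to 77.0% of the controls.

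To show which sequences the spacings stand for, the members were searched on both strands in the 32851 promoter windows of RefSeq for build GRCm38.p6, each 250 bases before to 50 after a gene start. At least 1 window held the spacing for 49 of the 74 members. These are examples of sequence with the spacing, on another build than the methylation table (mm9), and the table's values at these promoters are not given. The windows below stand for spacings of the groups described next in which both Tex15KO pups were below the controls, called or not, with the CpGs of the spacing in capitals and 10 bases (or as many as the window holds) on either side.

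Gm35240: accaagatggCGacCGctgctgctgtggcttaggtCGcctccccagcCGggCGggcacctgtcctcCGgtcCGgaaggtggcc

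Gm36816: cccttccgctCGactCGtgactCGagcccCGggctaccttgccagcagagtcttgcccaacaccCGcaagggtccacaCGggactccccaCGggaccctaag

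A230004M16Rik: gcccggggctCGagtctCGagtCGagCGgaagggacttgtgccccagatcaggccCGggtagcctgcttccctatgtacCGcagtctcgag

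Gm33462: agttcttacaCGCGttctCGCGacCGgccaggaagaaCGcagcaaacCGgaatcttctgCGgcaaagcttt

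Gm46244: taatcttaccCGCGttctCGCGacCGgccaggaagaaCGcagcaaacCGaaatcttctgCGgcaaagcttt

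Gm12496: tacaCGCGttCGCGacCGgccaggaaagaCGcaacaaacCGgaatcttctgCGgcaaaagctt

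Gm41318: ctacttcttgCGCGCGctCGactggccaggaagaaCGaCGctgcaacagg

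Gm52719: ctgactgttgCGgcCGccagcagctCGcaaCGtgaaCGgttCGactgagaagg

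LOC108167564: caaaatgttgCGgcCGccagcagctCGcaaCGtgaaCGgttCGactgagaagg

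The window of Gm35240 (chr12:77553541-77553623, plus strand) carries 4-21-12-4-15 followed by 5 bp, one end of the 4-5-15 chain described next. Gm36816 (chr6:67008964-67009065, minus strand) carries 5-7-7-35-14 followed by 12 bp, and A230004M16Rik (chr11:41710256-41710346, plus strand) carries 7-5-4-29-24, both from the 7-7-35 chain. With the CG in lower case just before their first capitals, both windows also hold the left-out run 4-5-7-7. They thus show the spacing where it overlaps that run. Gm33462 (chr4:7133950-7134020, minus strand) and Gm46244 (chr1:113145495-113145565, minus strand) carry the whole spacing 2-6-2-4-13-10-12 of the 2-6-2-4 set. This spacing begins with the left-out run 2-6-2-4-13, so both windows hold that run as well as members of the set. Gm12496 (chr4:53403776-53403838, plus strand) carries 2-4-2-4-13-10-12, in which the second distance is 4 bp in place of 6. Gm41318 (chr15:49194439-49194488, minus strand) carries 2-2-4-17-3. Gm52719 (chr4:124353055-124353107, plus strand) and LOC108167564 (chr8:128753608-128753660, plus strand) both carry 4-11-5-6-5.

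Promoter windows at separate places that shared a spacing of the 2-6-2-4 set were also alike in the bases between the CpGs. For 6-2-4-13-10, held by 3 windows (0.00913% of all), the 25 bases between the CpGs were 100% identical in each of 3 pairs. The windows of Gm33462 and Gm46244, which also hold a left-out run, are among them. For 2-4-13-10-12, held by 5 windows, identity over 31 such bases was 87.1 to 100% with a median of 95.2% over 10 pairs. This spacing also fits the 2-4-2-4 set, and the window of Gm12496 carries it. The windows of Gm33462 and Gm12496 shared a stretch of 24 bases, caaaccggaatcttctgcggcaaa, that 7 promoter windows hold (0.0213%). Those of Gm33462 and Gm41318 shared 14 bases, ggccaggaagaacg, held by 16 windows (0.0487%). By contrast the 5 windows with 4-11-5-6-5 had a median identity of 26.2% over 6 pairs, from 14.3 to 100%, and the 5 windows with 2-2-4-17-3 one of 22.2% over 10 pairs, from 5.56 to 100%, so these spacings were also found in windows that share little sequence.

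Members were sorted into groups by spacing alone, after their values had been seen, so the groups are a description. When windows that run into each other are laid end to end, 5 members lie on 1 chain of distances, 4-5-15-4-12-21-4-13-7 (the 4-5-15 chain). Another 5 lie on 7-7-35-14-12-52-2-2-15-24-29-4-5, whose distances sum to 208 bp and then start again (the 7-7-35 chain). A pair of 5-7-7-35-14 copies lay exactly 208 bp apart. The 2-6-2-4 set holds 9 members that fit 2-6-2-4-13-10-12, some of them with a CpG missing, and the 2-4-2-4 set holds 6 that fit 2-4-2-4-13-10-12. Some of the 9, such as 2-4-13-10-12, fit both spacings and were placed in the first set, so its loci can also belong to the second. The remaining members are 25 CG repeats (3 or more distances of 2 bp), 3 patterns with 5 equal distances, 14 in 4 smaller sets and 7 in no group.

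In the test over all 636 recurring patterns with at least 10 calls in every pup, 11 of the 74 members fell in Tex15KO against Tex15WT and 0 rose (edgeR's quasi-likelihood test, Benjamini-Hochberg adjusted p under 0.05). The background was 2.67% of all patterns called lower and 0% called higher. The other 6 patterns called lower were the 5 that hold a left-out run and 1 that was under 50% in the controls. At an unadjusted p under 0.05, 24 members were lower and 1 higher, beside 44 and 11 of all 636 patterns, and limma called 13 lower (background 2.83%) and 0 higher. Against Tex15HT, 10 members fell (background 2.52%), and limma called 9 lower (background 2.2%). Between Tex15HT and Tex15WT no member was called by edgeR or limma, no member had an unadjusted p under 0.05 in edgeR or in limma, and the differences ran from -18.9 to 8.89 points. The median difference over the members was -9.02 points between Tex15KO and Tex15WT and -0.377 points between Tex15HT and Tex15WT, beside medians of -0.201 and 0.0215 points over all tested patterns. Most recurring patterns were under 50% in the controls, which left them less room to fall.

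Both Tex15KO pups were below all 4 controls at 33 of the 74 members, where 11.8% of all recurring patterns had this order, and above all 4 at 5 members, where 4.82% did. CpGs of recurring patterns that are not members were at 10.9 to 12.6% in the controls. They had little room to fall, so the 11.8% is not a like-for-like background. Since the rule chose members on the controls' level, that level is a description and carries no test. When members were instead chosen on Tex15WT 8 and Tex15HT 7, and Tex15KO was tested against Tex15WT 9 and Tex15HT 18, 10 members fell and all 10 were among the 11. With Tex15KO 16 as the only knockout pup 13 members fell and 0 rose, the 11 included. With Tex15KO 3 alone 13 fell, again with all 11 included, and 4 rose; the lone pup is assumed in each case to vary like the other genotypes.

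**Figure D1:**
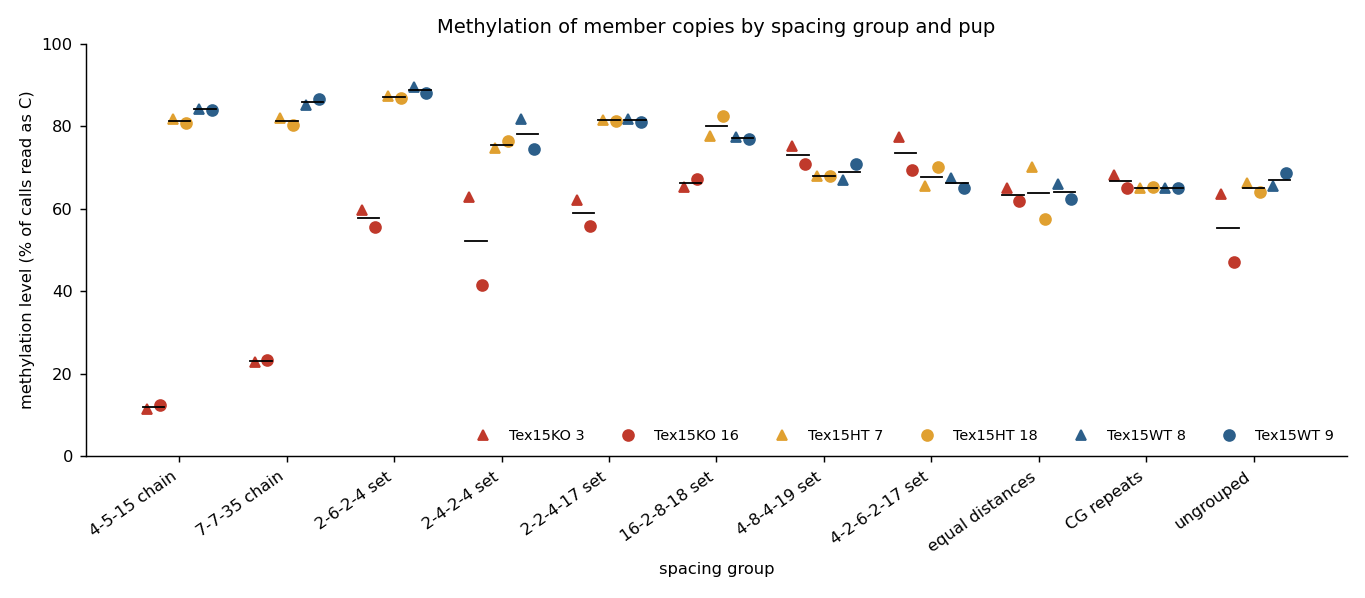
Methylation level (percent of calls read as C, vertical axis) of the copies in each spacing group, with 1 point per pup and a black bar at the mean of each genotype, Tex15KO, Tex15HT and Tex15WT from left to right. Both Tex15KO pups lie near 12% in the 4-5-15 chain and near 23% in the 7-7-35 chain, while in the CG repeats all 6 pups lie between 65.0 and 68.3%.

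The 4-5-15 chain had the lowest level in Tex15KO of all the groups. Its 41 loci (overlapping windows merged) were methylated at 11.4% in Tex15KO 3 and 12.5% in Tex15KO 16, against 81.9 and 80.9% in Tex15HT 7 and 18 and 84.3 and 83.9% in Tex15WT 8 and 9. Both knockout pups were far below every control, and all 5 of its patterns were among those that fell. The spread between pups of a genotype was under 1 point (11.9 ± 0.747% in Tex15KO, 81.4 ± 0.684% in Tex15HT and 84.1 ± 0.315% in Tex15WT, SD, n = 2 each). Every one of the 36 loci with 5 or more calls in Tex15KO 3, and of the 41 in Tex15KO 16, was below 50%, while 1 of the 41 was below 50% in the pooled controls.

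Within this chain, 4-5-15-4-12 (10 places) was methylated at 5.79% in Tex15KO 3 and 7.29% in Tex15KO 16, against 78.8 and 82.6% in Tex15HT 7 and 18 and 87.1 and 84.7% in Tex15WT 8 and 9. The groups did not overlap, and it fell by 79.4 points against Tex15WT (edgeR adjusted p = 0.000149), the largest decrease of any member. Its copy with most calls, chr6:9554121-9554162 in mm9, was at 3.45% of 87 calls in Tex15KO 3 and 0.962% of 104 calls in Tex15KO 16, against 77.8 and 78.9% in Tex15HT and 84.8 and 90.0% in Tex15WT on 10 to 33 calls. No copy of this pattern shares a CpG with a left-out run. In Tex15KO 16 its copies ran from 0 to 16.4%, with a median of 8.51%.

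The pattern 7-13-4-21-12 (21 places) was methylated at 13.3% in Tex15KO 3 and 12.98% in Tex15KO 16, against 83.6 and 82.6% in Tex15HT 7 and 18 and 84.6 and 87.3% in Tex15WT 8 and 9. Both knockout pups were again below all controls, by 72.8 points against Tex15WT (edgeR adjusted p = 1.98e-06). This pattern shares CpGs with a left-out run at 17 of its 21 places, so most of it is the edge of the 3-7-13-4 copies. At chr12:96823790-96823848 it was at 9.90% of 101 calls in Tex15KO 3 and 11.3% of 186 calls in Tex15KO 16, against 91.6 and 72.3% in Tex15HT and 84.5 and 81.6% in Tex15WT. Leaving out every locus of the chain within 1 kb of a left-out run left 24 loci, at 10.1 ± 1.69% in Tex15KO, 80.05 ± 1.04% in Tex15HT and 82.5 ± 1.98% in Tex15WT (SD, n = 2 each), so the loss was as large away from those copies.

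The 7-7-35 chain kept a little more, though its difference from the 4-5-15 chain was not tested. Its 52 loci were at 22.95% in Tex15KO 3 and 23.4% in Tex15KO 16, against 82.1 and 80.5% in Tex15HT 7 and 18 and 85.2 and 86.6% in Tex15WT 8 and 9, with no overlap between knockout pups and controls. Of its 5 patterns, 3 fell in edgeR's test and 4 in limma's. Of 43 loci read in Tex15KO 3, 24 were below 20% and 2 above 80%, and of 52 in Tex15KO 16, 27 were below 20% and 0 above 80%. In the controls 29 to 35 of 50 or 51 loci were above 80%.

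Its pattern 5-7-7-35-14 (17 places) was at 14.9% in Tex15KO 3 and 16.02% in Tex15KO 16, against 83.3 and 83.8% in Tex15HT 7 and 18 and 85.8 and 89.0% in Tex15WT 8 and 9. The groups were apart by 71.9 points against Tex15WT (edgeR adjusted p = 2.73e-05), and all 17 copies read in Tex15KO 16 and all 16 read in Tex15KO 3 were below 50%. The copy with most calls, chr13:40721648-40721717 in mm9, was at 5.95% of 185 calls in Tex15KO 3 and 18.1% of 116 calls in Tex15KO 16, against 88.9 and 97.9% in Tex15HT and 96.4 and 93.8% in Tex15WT. It lies in the one 1 kb tile with a member copy that edgeR called over all 330110 tiles, chr13:40721001-40722000, which was 82.4 points lower in Tex15KO than in Tex15WT (adjusted p = 0.00132).

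From the other side of the 208 bp period, 7-5-4-29-24 (14 places) was at 24.7% in Tex15KO 3 and 30.2% in Tex15KO 16, against 84.1 and 83.0% in Tex15HT 7 and 18 and 92.2 and 89.2% in Tex15WT 8 and 9. It fell by 63.3 points (edgeR adjusted p = 0.000225), and its copies were less even, from 0 to 70.7% in Tex15KO 16. Its deepest copy, chr12:92402773-92402843, was at 11.02% of 127 calls in Tex15KO 3 and 34.7% of 95 calls in Tex15KO 16, against 93.9 and 73.4% in Tex15HT and 96.5 and 91.6% in Tex15WT. The patterns from the middle of the period, named after their values were seen, differed between the knockout pups: 2-2-15-24-29 (11 places) was at 35.5% in Tex15KO 3 and 21.01% in Tex15KO 16 and 2-2-52-12-14 (10 places) at 36.4% and 25.1%, against 75.4 to 82.8% and 75.1 to 81.1% in the 4 controls. Neither passed the adjusted threshold in edgeR (adjusted p = 0.0564 and 0.157), and whether patterns within the chain differ from each other was not tested.

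Copies of the 7-7-35 chain often share CpGs with a left-out run, as 22 of its 52 loci do. Among the patterns that edgeR called, 5-7-7-35-14 did so at 12 of 17 places and 7-5-4-29-24 at 11 of 14. The third, 7-7-35-14-12 (named after its values were seen), did so at 5 of 11. Of those not called, 2-2-15-24-29 did so at 2 of 11 places and 2-2-52-12-14 at 0 of 10. In all, 24 of the 52 loci lie within 1 kb of a left-out run. The 28 others were at 35.6% in Tex15KO 3 and 24.02% in Tex15KO 16, against 78.8 and 76.3% in Tex15HT and 80.2 and 81.5% in Tex15WT. The difference from Tex15WT was then -51.1 points, in place of -62.8 over all 52 loci, and the groups still did not overlap. For comparison, the left-out copies themselves were at 11.1 and 11.8% in the Tex15KO pups for 3-7-13-4, 21.1 and 14.7% for 4-5-7-7 and 60.2 and 62.9% for 2-6-2-4-13, with differences between spacings not tested.

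**Figure D2:**
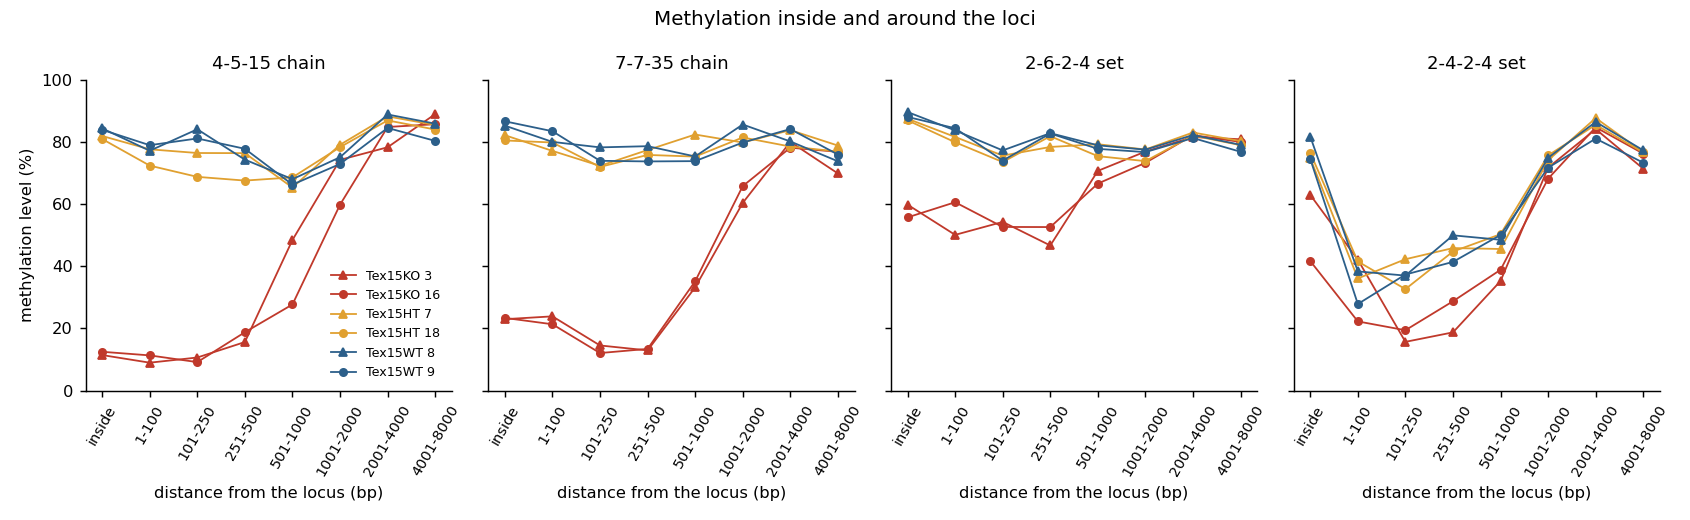
Methylation level (percent, vertical axis) of CpGs inside the loci and in bins of distance from their ends in bp (horizontal axis), 1 line per pup. The Tex15KO lines lie far below the controls for about 500 bp around both chains, then climb towards the controls over the next 3 bins; around the 2-4-2-4 set the controls are low too.

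CpGs around the loci of both chains were also low in Tex15KO for about 500 bp, and nearer to the controls farther away. CpGs 251 to 500 bp from a locus of the 4-5-15 chain were at 15.6% in Tex15KO 3 and 18.8% in Tex15KO 16, against 67.5 to 76.4% in Tex15HT and 74.3 to 77.8% in Tex15WT. At 501 to 1000 bp they were at 48.4 and 27.7% in the Tex15KO pups, against 65.3 to 68.6% in the 4 controls, and at 2001 to 4000 bp at 78.3 and 84.8%, against 84.5 to 88.8%. Around the 7-7-35 chain CpGs at 251 to 500 bp were at 12.9 and 13.4% in the Tex15KO pups, against 73.7 to 78.6% in the controls. At 1001 to 2000 bp these CpGs were at 60.4 and 65.8% in Tex15KO, against 79.8 to 85.6% in the controls. These bins are given as a description. Of the loci, 17 of 41 in the 4-5-15 chain and 24 of 52 in the 7-7-35 chain lie within 1 kb of a left-out run. The distances of the 7-7-35 chain also start again after 208 bp. How far nearby copies set the levels in the bins was not tested. Reads were 75 nt long, so only the nearest CpGs can lie on the same read as a locus.

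The 2-6-2-4 set, the largest outside the CG repeats, was partly methylated in knockout pups: its 150 loci were at 59.8% in Tex15KO 3 and 55.7% in Tex15KO 16, against 87.4 and 86.9% in Tex15HT 7 and 18 and 89.6 and 88.0% in Tex15WT 8 and 9. Both knockout pups were below all controls in the set and in 8 of its 9 patterns. In edgeR's test 2 of the 9 fell, and in limma's 3. The 2 that edgeR called share CpGs with the left-out run 2-6-2-4-13 at many places. These were 38 of 46 for 6-2-4-13-10 (named after its values were seen) and 23 of 49 for 2-4-13-10-12. The latter also fits the 2-4-2-4 set, and was found within 1 kb of 8 of the 13 places of 4-2-4-13-10 of that set. The other 7 patterns are versions with a CpG missing, of which 6-2-4-13-22 shares CpGs with the left-out run at 15 of 23 places. The most frequent, 2-4-13-10-12 (49 places), was at 54.5% in Tex15KO 3 and 56.2% in Tex15KO 16, against 85.8 and 88.5% in Tex15HT 7 and 18 and 91.8 and 90.1% in Tex15WT 8 and 9. It fell by 35.6 points without overlap (edgeR adjusted p = 0.000424), but with each copy counted once and limma on percent the adjusted p was 0.0597. Under its other 9 alternatives, each pup left out in turn included, the adjusted p ran from 7.7e-05 to 0.0485.

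The mean level hides a split between copies. In Tex15KO 16, 28 of 150 loci were below 20%, 61 between 20 and 80% and 61 above 80%. In the controls 1 to 4 loci were below 20% and 106 to 122 of 137 to 144 above 80%. Within 2-4-13-10-12, copies ran from 0 to 100% in both Tex15KO pups, with a median of 85.7% over the copies read in Tex15KO 3 and 68.2% in Tex15KO 16.

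**Figure D3:**
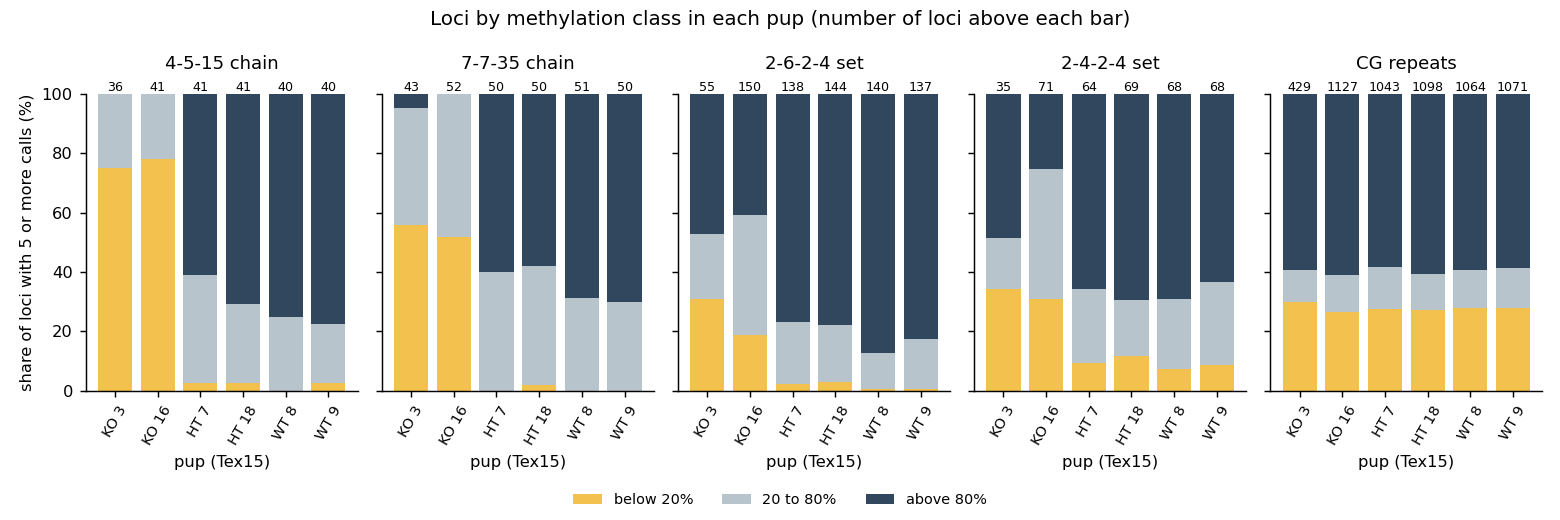
Share of loci (percent of loci with 5 or more calls, vertical axis) that were below 20%, between 20 and 80% and above 80% methylated, for each pup in 5 spacing groups, with the number of loci above each bar. In both chains the class above 80% holds 0 or 2 loci in the Tex15KO pups, in the 2-6-2-4 and 2-4-2-4 sets all 3 classes are filled, and in the CG repeats the 6 bars are alike.

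The same copies were low in both knockout pups. Loci of the 2-6-2-4 set that were below 50% in Tex15KO 16 (59 of 150) were at 11.9% in Tex15KO 3 when their calls were pooled, and 17 of the 20 with 5 or more calls there were below 50%. The 91 loci at or above 50% in Tex15KO 16 were at 76.5% in Tex15KO 3, with 4 of 35 below 50%. Chosen the other way round, the 21 loci below 50% in Tex15KO 3 were at 34.8% in Tex15KO 16 and the 34 others at 70.6%. Loci low in Tex15KO 16 were also slightly lower in controls, at 84.0 and 79.7% in Tex15HT and 85.6 and 83.6% in Tex15WT, against 89.4 to 92.2% for the others. Loci within 1 kb of a left-out run made up 19 of the 59 low loci and 34 of the 91 others, and over the 97 loci farther away the set was at 63.7% in Tex15KO 3 and 54.8% in Tex15KO 16, against 84.9 to 89.1% in the 4 controls.

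**Figure D4:**
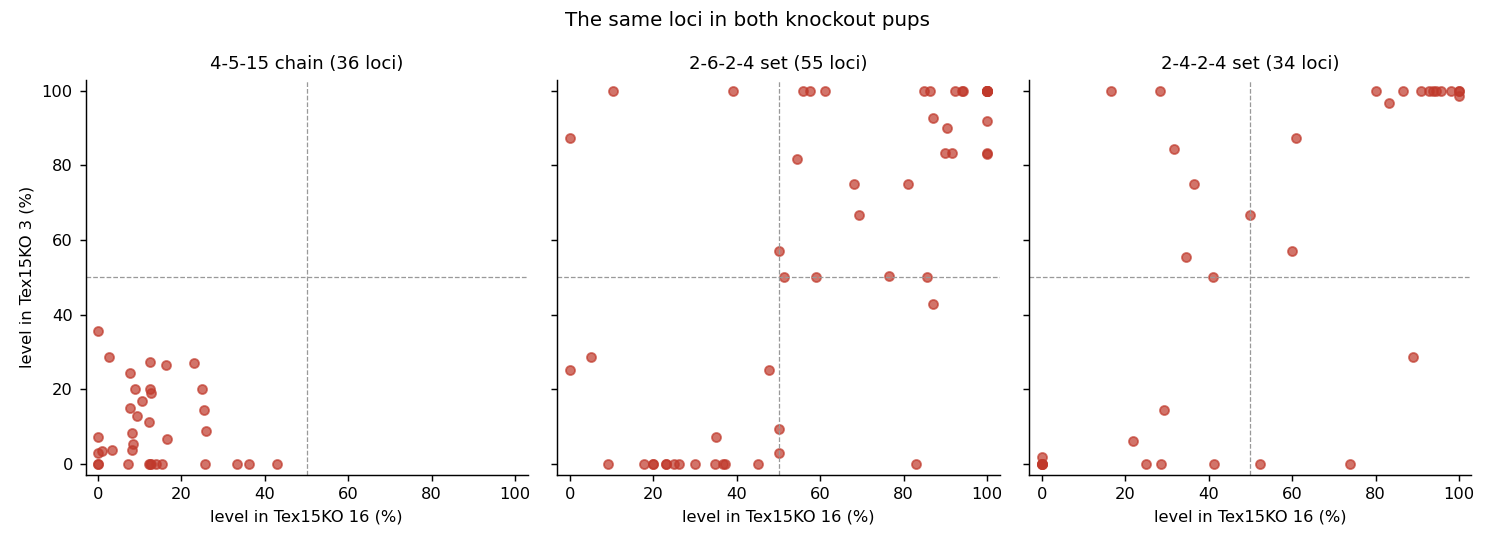
Methylation level (percent) of the same locus in Tex15KO 16 (horizontal axis) and Tex15KO 3 (vertical axis), for loci with 5 or more calls in both pups. The 36 loci of the 4-5-15 chain all lie in the lower left corner, while the 55 loci of the 2-6-2-4 set and the 34 of the 2-4-2-4 set lie mostly in the lower left and upper right, that is, low in both pups or high in both.

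The 2-4-2-4 set, with the second distance 2 bp shorter, was uneven between knockout pups: its 72 loci were at 63.0% in Tex15KO 3 and 41.7% in Tex15KO 16, against 74.7 and 76.5% in Tex15HT 7 and 18 and 81.7 and 74.5% in Tex15WT 8 and 9. The Tex15KO pups lay below all controls but 21 points apart from each other. None of its 6 patterns passed the test in edgeR, or in limma on the pooled counts. With each copy counted once limma called 6-4-13-10-12 lower. The most frequent, 2-4-2-4-13 (37 places, named after its values were seen), was at 60.9 and 38.8% in Tex15KO, against 68.9 and 75.0% in Tex15HT and 84.4 and 75.9% in Tex15WT (edgeR adjusted p = 0.131). Loci below 50% in Tex15KO 16 were at 32.5% in Tex15KO 3 (10 of 16 below 50%), and the others at 87.5% (3 of 18 below 50%). The loci low in Tex15KO 16 were also lower in the controls, at 67.9 and 71.5% in Tex15HT and 77.0 and 67.5% in Tex15WT. The others were at 82.3 to 87.4% there. Of the 72 loci of the set, 8 were below 50% in the pooled controls. Unlike the other 3 groups, its surroundings were poorly methylated in every genotype: CpGs 101 to 250 bp away were at 15.7 and 19.4% in Tex15KO, 42.2 and 32.6% in Tex15HT and 37.0 and 37.3% in Tex15WT.

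Among members in no group, 4-11-5-6-5 (11 places) was at 20.2% in Tex15KO 3 and 11.9% in Tex15KO 16, against 68.8 and 49.7% in Tex15HT 7 and 18 and 79.0 and 77.2% in Tex15WT 8 and 9. It was 62.1 points lower than in Tex15WT (edgeR adjusted p = 0.0400), with both knockout pups below all controls, but the control pups themselves spanned 29 points. The edgeR call was lost without Tex15WT 8 (adjusted p = 0.400), without Tex15WT 9 (0.2999), without Tex15HT 7 (0.0568) and after thinning to equal calls (0.0848), with differences of -61.2, -63.0, -62.1 and -60.5 points, and against Tex15HT it did not pass (0.305). Its deepest copy, chr15:18449499-18449531, was at 3.57% of 28 calls in Tex15KO 3 and 31.3% of 32 calls in Tex15KO 16, against 88.9 and 81.3% in Tex15HT and 95.5 and 88.9% in Tex15WT on 16 to 22 calls. Of the 6 other ungrouped members none was called by edgeR, or by limma on the pooled counts. With each copy counted once limma called 5-8-4-30-9 lower (named after its values were seen). It was at 75.5 and 59.4% in Tex15KO, against 82.2 to 88.9% in the 4 controls. The lowest of these 6, 2-4-6-13-3 (11 places, named after its values were seen), was at 34.9% in Tex15KO 3 and 22.3% in Tex15KO 16. The controls were at 52.6 and 61.7% in Tex15HT and 54.7 and 69.4% in Tex15WT, so both knockout pups were below all of them (edgeR adjusted p = 0.570).

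No pattern of the smaller sets was called by edgeR, or by limma on the pooled counts; with each copy counted once limma called 2-2-4-17-3 lower. The 2-2-4-17 set (35 loci) was at 62.1 and 55.9% in the Tex15KO pups, against 81.6 and 81.3% in Tex15HT and 81.9 and 81.1% in Tex15WT, and the 16-2-8-18 set (31 loci) at 65.3 and 67.1%, against 77.7 and 82.5% in Tex15HT and 77.3 and 76.9% in Tex15WT. Both knockout pups were below all controls in both sets, yet none of their 6 patterns passed edgeR's test. In the 4-8-4-19 set (119 loci) the Tex15KO pups were at 75.3 and 70.8%, against 67.9 and 68.0% in Tex15HT and 67.1 and 70.8% in Tex15WT. In the 4-2-6-2-17 set (18 loci) they were at 77.5 and 69.5%, against 65.6 and 70.1% in Tex15HT and 67.5 and 65.1% in Tex15WT. In these last sets the knockout pups overlapped the controls or lay just above them, and no pattern was called. The 3 patterns of 5 equal distances (11 loci) were at 64.97 and 61.9% in Tex15KO, against 70.1 and 57.6% in Tex15HT and 66.02 and 62.3% in Tex15WT, with all genotypes overlapping.

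**Figure D5:**
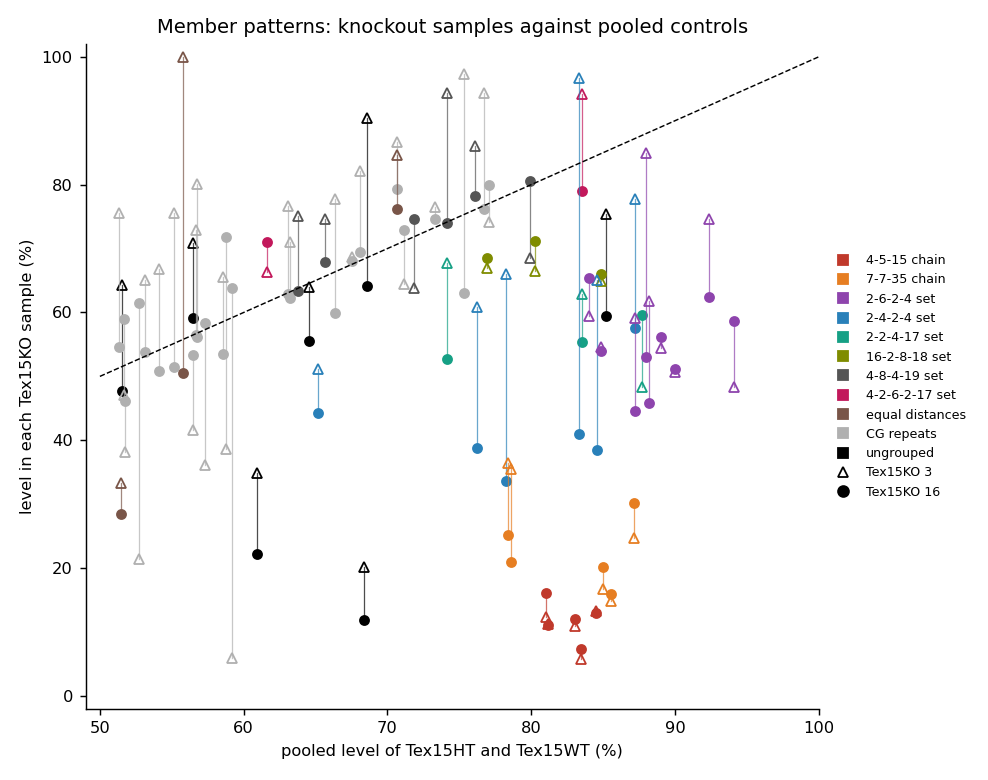
Level of each of the 74 member patterns in Tex15KO 3 (open triangles) and Tex15KO 16 (filled circles), in percent on the vertical axis, against the pooled level of the 4 controls on the horizontal axis, coloured by spacing group; the dashed line marks equal levels. The 5 patterns of the 4-5-15 chain and 3 of the 7-7-35 chain lie below 31% in both pups, and the CG repeats scatter around the dashed line, more widely in Tex15KO 3.

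The CG repeats were the bulk of the members, 25 patterns at 2383 places in 1156 loci, and their pooled level was not lower in knockout pups. Their level was 68.3% in Tex15KO 3 and 65.1% in Tex15KO 16, against 65.1 and 65.3% in Tex15HT 7 and 18 and 65.1 and 65.0% in Tex15WT 8 and 9. Tex15KO 16 lay within 0.3 points of the controls and Tex15KO 3 about 3 points above them, and no pattern was called. Of the 25 patterns, 8 were lower in Tex15KO than in Tex15WT and the others higher. In 1 of the 8 both knockout pups were below all 4 controls. This was 2-2-4-2-4 (81 places, named after its values were seen), at 38.2% in Tex15KO 3 and 46.2% in Tex15KO 16. The controls were at 49.3 to 53.3% (edgeR adjusted p = 0.802). It holds the distances 2-4-2-4, and whether its copies belong to the 2-4-2-4 set was not tested. At 2-2-2-2-44 (11 places, named after its values were seen) Tex15KO 3 alone was low. It was at 5.97% of 67 calls there and 63.8% in Tex15KO 16, against 54.1 to 62.4% in the 4 controls (edgeR adjusted p = 0.938). The most frequent of all, 2-2-2-2-2 (1048 places), was at 76.6% in Tex15KO 3 and 74.6% in Tex15KO 16, against 73.4 and 73.3% in Tex15HT 7 and 18 and 72.8 and 73.6% in Tex15WT 8 and 9, a difference of 2.39 points (edgeR adjusted p = 0.377). With Tex15KO 3 as the only knockout pup edgeR called that pattern higher, by 3.39 points (adjusted p = 0.0121).

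The next most frequent CG repeats were not called either. The pattern 2-2-2-2-4 (267 places) averaged 68.4 ± 0.516% in Tex15KO, 68.0 ± 0.184% in Tex15HT and 67.0 ± 2.12% in Tex15WT, and 2-2-2-4-2 (231 places) averaged 68.7 ± 5.89% in Tex15KO, 72.7 ± 0.469% in Tex15HT and 69.6 ± 0.111% in Tex15WT (SD, n = 2 each). For 2-2-2-2-6 (122 places) Tex15KO 3 was at 72.9% and Tex15KO 16 at 56.5%, against 54.0 to 57.6% in the 4 controls, so the higher mean came from Tex15KO 3. With Tex15KO 3 as the only knockout pup edgeR called it higher, by 15.3 points (adjusted p = 0.0143), and with Tex15KO 16 alone the difference was -1.004 points (adjusted p = 0.986). For 2-2-2-6-2 (97 places) they were at 65.1 and 53.8%, against 46.1 to 55.9%. Loci of CG repeats were mostly either above 80% (686 of 1127 in Tex15KO 16, 607 to 666 of 1043 to 1098 in the controls) or below 20% (301 of 1127 in Tex15KO 16, 289 to 298 in the controls). In Tex15KO 3, where 429 loci were read, 255 were above 80% and 129 below 20%. CpGs 1 to 100 bp from these loci, high and low ones pooled, were at 17.6 and 19.1% in Tex15KO, 20.5 and 19.2% in Tex15HT and 19.6 and 19.5% in Tex15WT. The surroundings of the methylated loci alone were not looked at.

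The largest increases over Tex15WT were not called, and in each Tex15KO 3 was the highest of the 6 pups. The equally spaced 17-17-17-17-17 (10 places, at which copies overlap in tandem arrays) was at 100% of 108 calls in Tex15KO 3 but 50.5% in Tex15KO 16, against 60.4 and 56.9% in Tex15HT 7 and 18 and 50 and 54.2% in Tex15WT 8 and 9 (edgeR adjusted p = 0.938). The CG repeat 2-2-2-8-2 (26 places) was at 75.5% in Tex15KO 3 and 54.6% in Tex15KO 16, against 56.9 and 47.3% in Tex15HT and 54.1 and 46.0% in Tex15WT (edgeR adjusted p = 0.860). For 6-2-6-2-8 (13 places) the levels were 70.8 and 59.1% in Tex15KO, against 61.8 and 59.1% in Tex15HT and 44.3 and 58.8% in Tex15WT (edgeR adjusted p = 0.942). In all 3 patterns Tex15KO 16 overlapped the controls. Without Tex15KO 3 the differences of 23.2, 14.96 and 13.4 points became -1.56, 4.47 and 7.54. For 17-17-17-17-17, Tex15KO 3 as the only knockout pup gave an edgeR call of 47.9 points higher (adjusted p = 6.7e-05). For 6-2-6-2-8 the difference was 6.15 points without Tex15WT 8 and -14.7 points with each copy counted once.

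Because CG repeats make up most copies, the level over all members moved little: 63.6% in Tex15KO 3 and 58.8% in Tex15KO 16, against 69.3 and 69.0% in Tex15HT and 69.6 and 69.5% in Tex15WT. The difference between Tex15KO and Tex15WT was -8.33 points over all members and -27.3 points over the members that are not CG repeats, which were at 52.8 and 48.3% in the Tex15KO pups, against 77.0 and 76.0% in Tex15HT and 77.9 and 77.8% in Tex15WT.

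None of the patterns next to the threshold of 50% was called. Just inside it, 2-2-2-8-2 was at 51.3% in the pooled controls, 9-9-9-9-9 at 51.4% and 4-4-8-4-8 at 51.5%. Just outside it, 4-2-2-2-4 was at 48.9%, 4-4-4-8-4 at 49.3% and 18-18-18-18-18 at 49.4%. The 9-9-9-9-9 copies were at 33.3% in Tex15KO 3 and 28.5% in Tex15KO 16, against 71.4 and 34.5% in Tex15HT and 43.4 and 51.97% in Tex15WT, below all controls but with control pups 37 points apart.

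At the level of single places, 966 tiles of 1 kb that hold a member copy could be tested, and edgeR called 1 lower and 0 higher (background 0.00939% lower and 0.000303% higher), the chr13 tile given above. That call was lost without Tex15WT 8 and without Tex15WT 9, and without Tex15KO 3 and without Tex15KO 16 the number called was 45 (all lower) and 138 (113 lower and 25 higher). limma called 19 of the 966 lower (background 0.0963%) and 0 higher, 9 of them in the 4-5-15 chain. The others included tiles from groups with no such change as a whole. These were a CG repeat tile on chr3 with 2-2-4-2-4 (-89.1 points against Tex15WT) and a tile of the 4-2-6-2-17 set on chr1 (-89.7 points). Among the 18 loci of the 4-2-6-2-17 set, 3 share CpGs with a left-out run. Whether the chr1 tile holds such a locus was not looked at. A tile of the 2-4-2-4 set on chr9 (-85.0 points) and one of the ungrouped 5-8-4-30-9 on chr19 (-76.4 points) were also called.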

How the data were processed

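Germ cells sorted from 6 single pups were sequenced by whole-genome bisulfite sequencing. The deposited table gives, per cytosine in mm9, the count of calls, of C and of T in each pup, as made by the authors; the submitters' processing notes name BSMAP, Bismark and methylKit with no version, and neither filters nor the conversion rate of the lambda spike were stated there. Calls of the 2 strands of a CpG were summed, which gave 8610279 CpGs from 10025464 cytosines.

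Members and lists were chosen with earlier results of these data known, and the spacing groups after their values were seen. Windows in deep tiles (1000 or more calls in every pup) were dropped. Member patterns share CpGs (74 members form 48 joined families) and are not independent, and both knockout contrasts share the Tex15KO pups. Counts of C and T per pattern were tested with edgeR 4.0.16 (quasi-likelihood, all 6 pups, R 4.3.3) over all 636 patterns with 10 calls in every pup, and limma 3.58.1 was run on log2((C + 1)/(T + 1)). Over members, the lowest number of calls in any pup was 14 and the median of each pattern's lowest pup was 195. Tiles of 1 kb with 3 or more CpGs were tested likewise. P-values measure the spread between pups, which within a genotype are separate animals, and calls from PCR-amplified reads are not independent molecules.

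Named patterns were, among members and 1 per joined family (the one at most places), the 10 largest decreases among those called lower (6 families had one), the 3 largest increases since none was called higher, the 5 most frequent, and the 3 on either side of 50%. Named copies were those with most calls for the first 5 decreases. Other patterns are said to be named after their values were seen. Python 3.11.15 with numpy 2.4.6, pandas 2.3.3 and matplotlib 3.10.9 was used. The calls were checked on simulated counts before use.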

Additional observations from a re-analysis of the deposited data

How the results depend on the processing

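No paired analysis was possible because the pups' numbers are not shared between genotypes. The 11 members that fell in Tex15KO against Tex15WT became 6 with joined families as units, 17 with each copy counted once and limma on percent, and 3 when 20 places were required. The 10 that fell against Tex15HT became 5, 18 and 3 under these settings. Leaving out each pup in turn gave 10 to 17 calls against Tex15WT and 9 to 17 against Tex15HT, both highest without Tex15KO 16, where 4 of the 17 in each comparison were higher. Between Tex15HT and Tex15WT the count was 0 under every alternative run. The 1 tile called became 19 with limma, 0 without the top 0.1% of coverage and 4 with 30 calls required, and leaving out each pup gave 0 to 138 (45 without Tex15KO 3 and 138 without Tex15KO 16, 25 of them higher), so tile counts depend on single libraries. The level over all members, -8.33 points, was -12.6 with 70% as the members' level, -2.69 with 20 places and -27.3 without CG repeats, and -10.7 to -5.95 with a pup left out. The setting without CG repeats, and the levels of groups away from left-out runs, were chosen after seeing the data. None of the named patterns that were called changed direction. Among named patterns that were not called, the difference from Tex15WT changed sign without Tex15KO 3 for 17-17-17-17-17 (-1.56), 18-18-18-18-18 (11.4), 2-2-2-2-6 (-1.004), 2-2-2-4-2 (3.26), 2-2-2-6-2 (-1.24), 4-2-2-2-4 (1.31) and 4-4-8-4-8 (-1.58), without Tex15WT 8 for 4-4-4-8-4 (-4.83), 4-4-8-4-8 (-0.869) and 2-2-2-2-4 (-0.111), and with each copy counted once for 2-2-2-2-4 (-0.564) and 6-2-6-2-8 (-14.7). The cause of each change was not tested.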

Other observations

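Copies were spread over the genome: the 41 loci of the 4-5-15 chain lay on 17 chromosomes and the 52 of the 7-7-35 chain on 19, with 1 and 2 loci on the X chromosome. The limits of these values are those of 2 pups per genotype and of a knockout library, Tex15KO 3, that read few of the members' CpGs. Reads from near-identical copies may be placed at the wrong copy, and how the aligner treated them was not tested. The sequences shown come from promoters of another build, so they are not the measured copies. Cell purity was not tested.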
